A study of Mus musculus with 6 samples.

Results

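The mitochondrial genome transcripts were the 37 genes on the mitochondrial chromosome (MT) whose symbols begin with mt-, of 54532 genes in the table. They were 13 protein-coding genes (mRNA), 2 ribosomal RNA genes (rRNA) and 22 transfer RNA genes (tRNA), and each class was described apart. T cells had been taken with a pan T-cell isolation kit from spleens of C57BL/6 mice aged 6 to 8 weeks, kept in medium with IL-2 and activated for 72 h with beads against CD3 and CD28. They were then co-cultured with ID8, a mouse ovarian cancer cell line, and collected for RNA sequencing. In the cisplatin group (CIS, 3 libraries) the ID8 cells had been pretreated with 40 µM cisplatin, a platinum drug that crosslinks DNA, and in the control group (WT, 3 libraries) with phosphate-buffered saline. No genetic modification is named for the cells of either group. The length of the co-culture is not given in the sources used here, nor whether replicates came from separate mice, so p-values measure only the spread between these libraries.

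Mitochondria keep a small circular genome that encodes core subunits of the respiratory chain and of ATP synthase together with the rRNAs and tRNAs needed to translate them. Both strands are transcribed as long precursors, and tRNAs that lie between the other genes mark where most precursors are cut. The remaining respiratory chain subunits, and the proteins that copy, transcribe, cut and translate the mitochondrial genome, come from nuclear genes. In T cells, activation is known to bring growth of the mitochondrial mass and a greater use of respiration.

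The libraries held 30606569 to 32169496 reads on genes, rebuilt from the deposited FPKM (fragment counts scaled by gene length and by the size of the library). The T-cell identity genes marked the libraries as T cells, and 23 of 23 were higher in the cisplatin group, with a median log2 difference of 0.59. Their summed level was 3134 to 3207 FPKM in the cisplatin libraries and 1984 to 2113 FPKM in the control libraries. RNA of the tumour cells was present as well. Markers of ID8 cells summed to 276 to 283 FPKM in the cisplatin group and to 1756 to 1840 FPKM in the control group, and 17 of 17 tested markers were lower in the cisplatin group with a median log2 fold change of -2.40. Of 20 listed markers the other 3 (Igfbp5, Krt7 and Tpm2) had means below the filter of 0.5 FPKM. B-cell genes (10 of 10 higher) summed to 3645 to 3720 against 1708 to 1797 FPKM, most of it from Ighm (means of 3220 against 1433 FPKM), without which the other 9 summed to 461 against 318 FPKM. Myeloid genes (8 of 11 tested higher, 1 lower, and 1 of 12 listed below the filter) summed to 163 to 186 against 85.0 to 88.9 FPKM. Higher and lower in these counts mean an adjusted p under 0.05 in limma. By that rule 27.5% of all tested genes were higher and 29.0% lower. Mitochondrial transcripts are made by each of these cell types, and the part of the mixture of cells in the values below was not tested. In such bulk samples fewer cells of a type and less RNA per cell cannot be told apart.

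The share of the mitochondrial genes in all reads was slightly higher in the cisplatin group. It was 1.73, 1.72 and 1.73% in the cisplatin libraries and 1.64, 1.59 and 1.67% in the control libraries, so the groups did not overlap, with a difference of 0.092 percentage points. As a share of summed FPKM the values were 4.17, 4.11 and 4.22% against 4.18, 3.99 and 4.14%, and on that scale the groups overlapped. The order of the groups thus held for reads and not for FPKM, which weights short genes more. Nearly all mitochondrial reads fell on mRNAs, which took 1.61 to 1.62% of reads in the cisplatin group, while the rRNAs took 0.109 to 0.123% after the selection of polyadenylated RNA.

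The mRNAs fell into a high and a low set by level. The high set of 7 (mt-Nd1, mt-Nd2, mt-Co1, mt-Nd4, mt-Nd5, mt-Nd6 and mt-Cytb) lay between 457 and 6410 FPKM in single libraries, and the low set of 6 (mt-Co2, mt-Atp8, mt-Atp6, mt-Co3, mt-Nd3 and mt-Nd4l) between 1.67 and 30.9 FPKM. The lowest mean of the high set was 16.7 times the highest mean of the low set. mt-Co1, the catalytic subunit of cytochrome c oxidase (complex IV), was the most abundant in each library, followed by mt-Cytb, the mitochondrially encoded subunit of complex III, and by mt-Nd1 of complex I. In both groups mt-Nd5 came next, then mt-Nd2 and mt-Nd4, whose libraries overlapped with each other, and then mt-Nd6, whose libraries overlapped with those of the small rRNA mt-Rnr1. These ranks are of FPKM as deposited, and parts of mt-Co1 and mt-Nd4 have nuclear copies, described below.

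**Figure D1:**
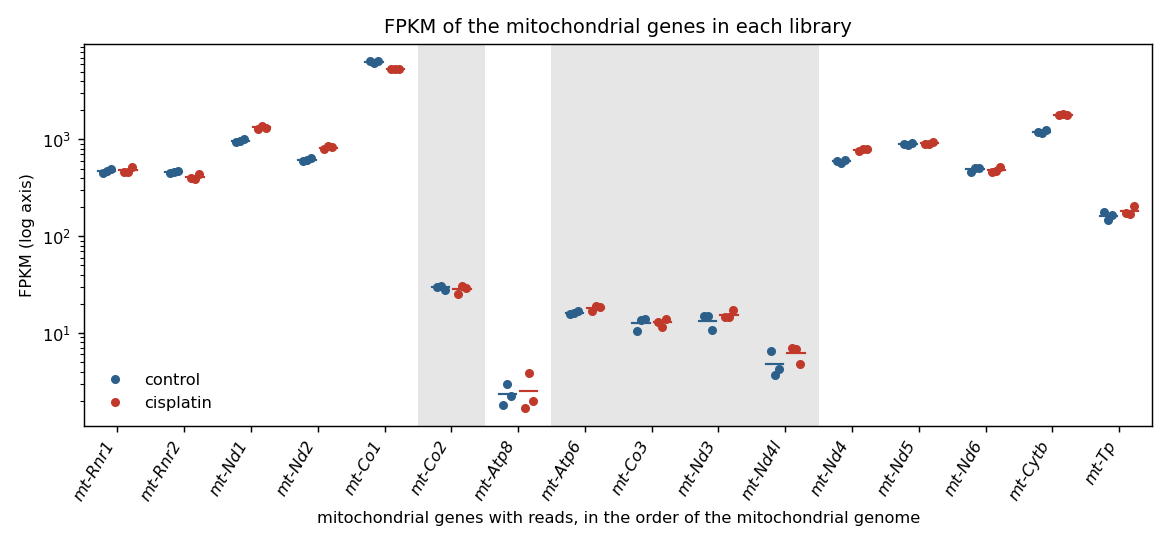
FPKM (log axis) of the 16 mitochondrial genes with reads in each of the 6 libraries, in the order of the mitochondrial genome; points are libraries, short lines are group means, and grey bands mark the 5 mRNAs with an exact copy in the nuclear genome over more than 97% of their length. The 5 genes in grey bands and mt-Atp8 lie below 31 FPKM in every library, while the other mRNAs lie above 457 FPKM.

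Between the groups, 5 of 13 mRNAs rose and 1 fell at an adjusted p under 0.05, and 7 did not pass (limma on log2(FPKM + 0.1), Benjamini-Hochberg adjustment over 15874 tested genes). Over all tested genes 27.5% rose and 29.0% fell by the same rule. The median log2 fold change was 0.16 for the 13 mRNAs and 0.03 for all tested genes. Leaving out 1 library moved the median of the mRNAs to between 0.099 (without replicate 3 of the control group) and 0.25 (without replicate 1 of the cisplatin group). No mitochondrial gene reached a fold of 2 (largest absolute log2 fold change 0.58, and 0.81 under any alternative), whereas 16.9% of all tested genes passed both the adjusted p and that fold. By limma 7 of the 16 tested mitochondrial genes passed an unadjusted p under 0.05, and these were the same 7 that passed the adjusted one.

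The directions rest on the scale of the libraries. Where each library was centred on its T-cell identity genes, the median of all tested genes moved from 0.03 to -0.54 and that of the mRNAs from 0.16 to -0.41. On that scale 65.9% of all tested genes passed as lower, beside 9 mRNAs, both rRNAs and mt-Tp among the 16 tested mitochondrial genes. mt-Cytb, the one mRNA above 0, then differed by 0.0050 (limma, adjusted p = 0.908), and the log2 fold changes of mt-Nd1, mt-Nd2 and mt-Nd4 were -0.12, -0.16 and -0.17. What follows gives changes in FPKM unless stated otherwise.

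mt-Cytb rose most. It was at 1778, 1816 and 1795 FPKM in the cisplatin libraries and at 1205, 1167 and 1243 FPKM in the control libraries. The groups lay well apart, with means of 1797 ± 18.9 and 1205 ± 38.0 FPKM (SD, n = 3), a log2 fold change of 0.58 (SE 0.039) and an adjusted p of 2.7e-05 in limma. The rise did not pass with quantile normalization (0.11, adjusted p = 0.111) or after centring on T-cell genes.

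3 subunits of complex I, the entry point of electrons from NADH, rose together on the FPKM scale and turned to lower after centring on T-cell genes. mt-Nd1 was at 1292, 1388 and 1315 FPKM with cisplatin and at 943, 972 and 1001 FPKM in the control group (log2 fold change 0.45, SE 0.044, limma adjusted p = 0.00015). mt-Nd2 was at 793, 847 and 832 against 605, 613 and 638 FPKM (0.41, SE 0.040, limma adjusted p = 0.00016). mt-Nd4 was at 759, 793 and 800 against 595, 571 and 610 FPKM (0.41, SE 0.040, limma adjusted p = 0.00017). In each of the 3 genes every cisplatin library stood above every control library. The other 2 complex I mRNAs of the high set gave values that overlapped between the groups. mt-Nd5 was at 890, 900 and 934 FPKM against 906, 884 and 914 FPKM, with a log2 fold change of 0.01 (SE 0.036, limma adjusted p = 0.82). mt-Nd6, the one mRNA encoded on the minus strand, was at 457, 472 and 519 FPKM against 459, 504 and 505 FPKM, with a log2 fold change of -0.02 (SE 0.061, limma adjusted p = 0.80). mt-Nd5 and mt-Nd6 share 14 bases on opposite strands, and whether counting used the strand is not stated. Where it did not, reads there cannot be told apart, and reads of plus-strand RNA anywhere over mt-Nd6 count as mt-Nd6.

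mt-Co1 fell, against the direction of the other changed mRNAs. It was at 5403, 5355 and 5309 FPKM in the cisplatin libraries and at 6410, 6137 and 6407 FPKM in the control libraries. The control libraries were higher throughout, with means of 6318 ± 157 FPKM against 5356 ± 46.9 FPKM (SD, n = 3) and a log2 fold change of -0.24 (SE 0.049, limma adjusted p = 0.0056). The call was lost without the filter on low values (adjusted p = 0.0894) and with quantile normalization (-0.15, adjusted p = 0.33).

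**Figure D2:**
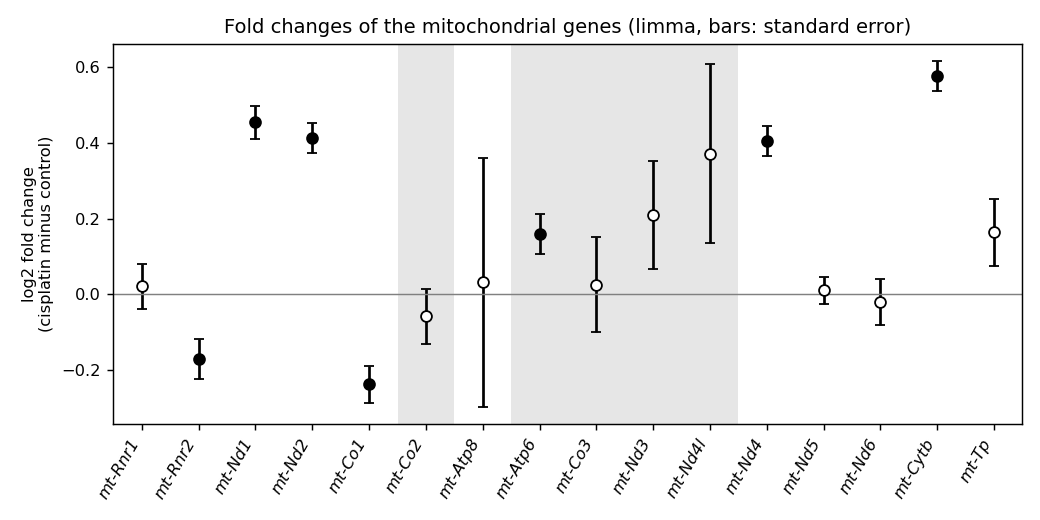
Log2 fold change (cisplatin minus control, FPKM scale) of the 16 mitochondrial genes with reads, with bars of 1 standard error; filled points passed an adjusted p under 0.05 in limma and grey bands mark mRNAs with an exact nuclear copy over more than 97% of their length. mt-Cytb, mt-Nd1, mt-Nd2 and mt-Nd4 stand between 0.41 and 0.58 and mt-Co1 at -0.24; after centring on T-cell genes the first 4 lie between -0.17 and 0.0050.

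Ratios between mitochondrial genes of the same library do not change when a library is scaled by a constant, though quantile normalization, which reshapes each library, does change them. mt-Cytb stood at 0.329, 0.339 and 0.338 of the FPKM of mt-Co1 in the cisplatin libraries and at 0.188, 0.190 and 0.194 in the control libraries. The log2 ratio was higher by 0.81 in the cisplatin group, at -1.58 ± 0.024 against -2.39 ± 0.023 (SD, n = 3). For mt-Nd1 the same ratio was 0.239, 0.259 and 0.248 against 0.147, 0.158 and 0.156, a log2 difference of 0.69. mt-Nd2 and mt-Nd4 differed by 0.65 and 0.64, so these 4 genes moved away from mt-Co1 by 0.64 to 0.81. With quantile normalization the differences of mt-Cytb, mt-Nd1, mt-Nd2 and mt-Nd4 from mt-Co1 were 0.26, 0.40, 0.39 and 0.38.

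Among the other genes the differences from mt-Co1 ranged from 0.067 for mt-Rnr2, which fell in FPKM, to 0.62 for mt-Nd4l, which had few reads. mt-Nd5 stood at 0.165, 0.168 and 0.176 of mt-Co1 with cisplatin and at 0.141, 0.144 and 0.143 in the control group, a log2 difference of 0.25. With quantile normalization that difference was -0.051. For mt-Nd6 the log2 difference was 0.22 and for mt-Rnr1 0.26 (0.033 and 0.070 with quantile normalization). For mt-Nd3, mt-Tp and mt-Atp6 it was 0.45, 0.40 and 0.40. The values of mt-Nd3 and mt-Atp6 depend on how reads were split with their nuclear copies, described below. On mt-Nd3 and its copy together there were 232, 259 and 290 reads in the cisplatin libraries. In the control libraries there were 355, 369 and 329. In 10 of 15 genes every cisplatin library had a higher ratio to mt-Co1 than every control library, and in the other 5 (mt-Rnr2, mt-Co2, mt-Atp8, mt-Co3 and mt-Nd4l) the groups overlapped. These ratios share mt-Co1 as their denominator, so their common direction is in part that of mt-Co1. Its log2 fold change was -0.24 and the median of all tested genes 0.03, so a gene at that median also rose against it. How many of all tested genes separate the groups by this ratio was not counted, so the 10 of 15 cannot be read as particular to mitochondrial genes. For each of the 10 the two-sided exact permutation p is 0.1, the smallest that 3 libraries against 3 can give. In FPKM, 7 of the 16 tested mitochondrial genes did not overlap between the groups, beside 64.2% of all tested genes.

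**Figure D3:**
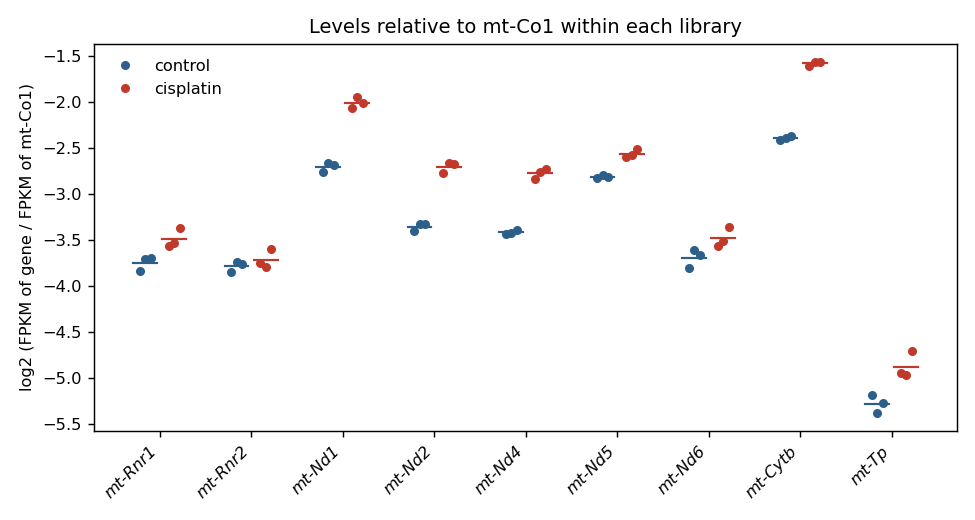
Log2 ratio of the FPKM of each mitochondrial gene with reads, outside the low set of mRNAs, to that of mt-Co1 in the same library. Points are the 3 libraries of each group and short lines their means. The mt-Cytb ratios lie near -1.58 in the cisplatin libraries and near -2.39 in the control libraries, while those of mt-Rnr2 overlap.

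The large rRNA fell and the small one did not pass. mt-Rnr2, the RNA of the large ribosomal subunit, was at 401, 388 and 439 FPKM in the cisplatin libraries and at 447, 460 and 472 FPKM in the control libraries, a narrow gap (log2 fold change -0.17, SE 0.052, limma adjusted p = 0.029). This call was lost in 7 of 18 alternatives, among them leaving out replicate 1 or 2 of the cisplatin group or replicate 2 or 3 of the control group (adjusted p 0.0728 to 0.0848). mt-Rnr1, the RNA of the small subunit, was at 456, 464 and 514 FPKM against 448, 470 and 494 FPKM, and the groups overlapped (0.02, SE 0.059, limma adjusted p = 0.79). Both rRNAs carry at most short A tails, and what poly-T capture keeps of them need not follow their amount in the cell.

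Of the 22 tRNA genes 21 were listed at 0 in each of the 6 libraries. No reads were counted on them, and counting error alone would allow an expected count of up to 3 reads per library. Each of these 21 genes lies beside another annotated gene at a distance of at most 32 bases, and some overlap with it by up to 3 bases. mt-Tp, the tRNA for proline (MT:15356-15422, minus strand), was the only one with reads. As for mt-Nd6, reads of plus-strand RNA there count as its own where counting did not use the strand. mt-Tp is the last gene of the table on this chromosome, with mt-Tt directly before it and no annotated gene after it. mt-Tf, the first gene, likewise has no annotated gene before it and was at 0. The reads on mt-Tp were 381, 380 and 441 in the cisplatin libraries and 356, 296 and 342 in the control libraries. In FPKM these were 176, 171 and 203 against 177, 147 and 166. The groups overlapped and the difference did not pass (0.16, SE 0.089, limma adjusted p = 0.16).

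The low set of mRNAs coincided with a copy of mitochondrial DNA in the nuclear genome. On chromosome 1 of GRCm38, 7 genes annotated as unprocessed pseudogenes lie side by side over 4663 bases of the minus strand (chr1:24611535-24616197) and repeat, in order, the end of mt-Co1, mt-Co2, mt-Atp6, mt-Co3, mt-Nd3, mt-Nd4l and the start of mt-Nd4. Gm28661 was identical to mt-Co2 over 681 bases, Gm10925 to mt-Atp6 over 678, Gm28437 to mt-Co3 over 783, Gm10222 to mt-Nd4l over 294 and Gm28439 to mt-Nd4 over its first 876 of 1378 bases. Gm28438 differed from mt-Nd3 at 1 of 345 bases and Gm29216 from mt-Co1 at 6 of 492 bases. Of all windows of 100 bases in each gene, the share with an exact copy in a nuclear transcript of GENCODE release M21 was 99.5% for mt-Co2 and mt-Atp6, 99.9% for mt-Co3, 97.6% for mt-Nd3 and 98.5% for mt-Nd4l. It was 60.8% for mt-Nd4, 30.8% for mt-Co1 and 3.19% for mt-Nd2, and 0 for mt-Nd1, mt-Nd5, mt-Nd6, mt-Cytb and mt-Atp8. The 5 genes copied almost whole were thus 5 of the 6 in the low set, and mt-Atp8 was the exception. Divided by its 502 bases outside the copy alone, the reads of mt-Nd4 would amount to 2153 FPKM in the cisplatin group and 1625 FPKM in the control group. That would place it above the deposited level of mt-Cytb in both groups. Over its 1053 bases outside Gm29216, mt-Co1 would be at 7858 FPKM in the cisplatin group and 9270 FPKM in the control group. How reads with several equal matches were counted is not stated, and the part of the copy in the low levels was not tested.

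The places where the copy can be told from the mitochondrial gene are few. The first bases of mt-Nd3 (MT:9459-9518, plus strand) and of Gm28438 (chr1:24613060-24613119, minus strand) are shown because they hold the single difference of that pair, in capitals, at the third base of the gene (T3C, counted from 1 at the first base of mt-Nd3).
mt-Nd3: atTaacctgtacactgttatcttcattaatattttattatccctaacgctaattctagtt
Gm28438: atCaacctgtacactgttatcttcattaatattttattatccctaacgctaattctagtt
The copied end of mt-Co1 (MT:6381-6440, plus strand) and the start of Gm29216 (chr1:24616138-24616197, minus strand) hold the 6 differences of that pair in their first bases, again in capitals, and the remaining bases of the pair are identical.
mt-Co1: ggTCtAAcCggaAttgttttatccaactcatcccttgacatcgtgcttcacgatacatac
Gm29216: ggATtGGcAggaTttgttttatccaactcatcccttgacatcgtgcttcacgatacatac
mt-Atp8 and mt-Atp6 overlap by 43 bases on the same strand, and these bases, in capitals, are also the first bases of Gm10925 (mt-Atp8 end, MT:7907-7969, and mt-Atp6 start, MT:7927-7989).
mt-Atp8: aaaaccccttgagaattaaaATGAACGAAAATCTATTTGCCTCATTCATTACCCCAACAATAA
mt-Atp6: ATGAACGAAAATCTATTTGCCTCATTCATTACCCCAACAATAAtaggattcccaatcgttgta
The other 161 bases of mt-Atp8 lie in no annotated copy. On chromosome 1 its place would be the 233 bases between Gm10925 and Gm28661, where no gene is annotated, and the genome sequence there was not analysed here.

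Of the low set only mt-Atp6 passed the test between the groups. This subunit of the proton channel of ATP synthase was at 17.0, 19.1 and 18.4 FPKM in the cisplatin libraries and at 15.8, 16.2 and 16.8 FPKM in the control libraries, just without overlap (log2 fold change 0.16, SE 0.053, limma adjusted p = 0.040). The call was lost in 7 of 18 alternatives and turned to -0.41 after centring on T-cell genes, and leaving out replicate 2 or 3 of the cisplatin group or replicate 1 or 2 of the control group was enough to lose it (adjusted p 0.0961 to 0.115). mt-Co2, which carries the copper centre that takes electrons from cytochrome c, was at 25.6, 30.9 and 28.9 against 30.0, 30.6 and 28.1 FPKM (-0.06, limma adjusted p = 0.54). mt-Co3 of the same complex was at 12.97, 11.7 and 14.1 against 10.5, 13.7 and 14.0 FPKM (0.03, limma adjusted p = 0.88). mt-Nd3 and mt-Nd4l, small membrane subunits of complex I, had log2 fold changes of 0.21 (limma adjusted p = 0.25) and 0.37 (limma adjusted p = 0.23). mt-Nd4l had only 33 to 67 reads in a library, and without replicate 1 of the control group its log2 fold change was 0.60 (limma adjusted p = 0.0378). mt-Atp8, an accessory subunit of ATP synthase, had 11 to 26 reads in a library (0.03, SE 0.33, limma adjusted p = 0.94), a depth at which changes of the size seen in mt-Cytb were not detectable.

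The pseudogenes themselves held 0.0058 to 0.0065% of reads. Gm28438, the copy of mt-Nd3, fell most, at 6.001, 8.05 and 8.59 FPKM in the cisplatin libraries and at 19.3, 20.7 and 20.3 FPKM in the control libraries. The groups lay far apart, and with a log2 fold change of -1.42 (SE 0.129, limma adjusted p = 0.00012) it was the only 1 of the 7 pseudogenes that passed the fold of 2. Gm29216 fell as well (25.4 ± 1.92 against 32.4 ± 1.91 FPKM, -0.35, limma adjusted p = 0.0039), and the other 5 did not pass.

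The split of reads between a gene and its copy differed between the groups in 2 pairs. Of the reads on mt-Nd3 and Gm28438 together, 28.9, 35.5 and 33.1% were on the pseudogene in the cisplatin libraries and 56.3, 58.0 and 65.3% in the control libraries. The group means lay 27.4 percentage points apart, while the summed reads of the pair were 232 to 290 with cisplatin and 329 to 369 in the control group. For mt-Nd4l and Gm10222 the share was 42.7, 41.2 and 48.9% against 53.2, 68.3 and 54.1%, on 85 to 124 reads. The two-sided exact permutation p of each difference is 0.1, the smallest possible here. The pairs of mt-Co2, mt-Atp6 and mt-Co3 were split at 35.4 to 56.7% with overlapping groups, and those of mt-Nd4 and mt-Co1 put 0.40 to 0.71% and 0.14 to 0.17% of reads on the pseudogene. The ID8 markers moved in the same direction as Gm28438, and their part in the split was not tested.

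**Figure D4:**
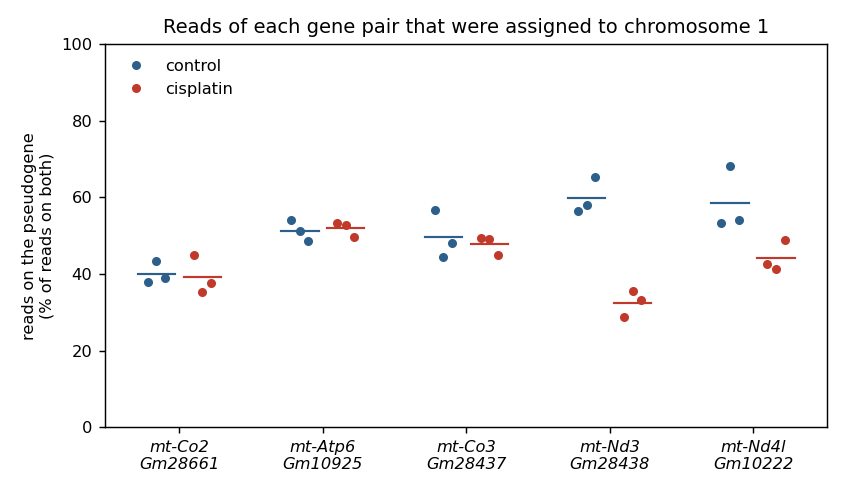
Percent of the reads of each pair that were assigned to the pseudogene on chromosome 1, for the 5 mRNAs copied almost whole; points are libraries and short lines group means. The mt-Nd3 pair lies at 28.9 to 35.5% in the cisplatin libraries and at 56.3 to 65.3% in the control libraries, and the mt-Co2, mt-Atp6 and mt-Co3 pairs overlap.

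Nuclear genes that act on mitochondrial DNA and RNA were read against all tested genes, of which 27.5% rose and 29.0% fell in FPKM. Of 19 genes for mitochondrial transcription and replication, 9 rose and 1 fell, with a median log2 fold change of 0.21. Polrmt, the mitochondrial RNA polymerase, was at 8.23 ± 0.145 FPKM against 6.09 ± 0.444 FPKM (SD, n = 3; log2 fold change 0.43, limma adjusted p = 0.0013). Mterf3, a factor of the mTERF family that binds mitochondrial nucleic acid, rose by 0.66, and Rnaseh1, which removes RNA from RNA-DNA hybrids, by 0.37. After centring on T-cell genes 11 of the 19 passed as lower, beside 65.9% of all tested genes.

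Genes for RNA processing and stability moved in both directions, with 5 of 19 higher, a share near that of all tested genes (27.5%), and 2 lower, beside 29.0% of all tested genes (median 0.20). Rexo2, an exonuclease of short RNAs, was at 17.9 ± 0.439 against 11.0 ± 0.180 FPKM (0.70, limma adjusted p = 9.5e-06). Grsf1, an RNA-binding protein of mitochondrial RNA granules that binds RNA of mt-Nd6, was at 19.6 ± 0.439 against 31.4 ± 0.293 FPKM (-0.67, limma adjusted p = 5.4e-06). Lrpprc, which stabilises mitochondrial mRNAs, rose by 0.35 and Tbrg4 by 0.41, while Fastk changed by -0.15. Slirp, the partner of Lrpprc, was below the filter.

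For the charging of mitochondrial tRNAs 6 of 17 genes rose and 2 fell (median 0.18), beside 27.5% and 29.0% of all tested genes. Tars2, the threonine enzyme, was at 14.7 ± 0.182 against 8.23 ± 0.202 FPKM (0.83, limma adjusted p = 5.6e-06), Cars2 and Lars2 rose by 0.49 and 0.27, and Vars2 changed by -0.32. Of 15 genes for RNA modification 3 rose and none passed as lower (median 0.10), with Gtpbp3 and Pus1, which modify tRNA bases, both at 0.30. After centring on T-cell genes, 15 of the 19 processing genes, 12 of 17 charging genes and 14 of 15 modification genes passed as lower, again beside 65.9% of all tested genes, and 1 processing gene and 1 charging gene as higher.

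The nuclear-encoded partners of the mitochondrial subunits showed no common rise, and the counts below stand beside the 27.5% of all tested genes that rose and the 29.0% that fell. In complex I, 8 of 36 nuclear genes rose and 14 fell (median -0.088), led by Ndufv3, an accessory subunit at 23.0 ± 0.409 against 42.5 ± 1.01 FPKM (-0.88, limma adjusted p = 1.8e-06). Ndufa8 and Ndufa7 changed by -0.51 and -0.50, and Ndufs8, an iron-sulphur subunit, rose by 0.45, Ndufa11 by 0.35 and Ndufa3 by 0.33. In complex III, where mt-Cytb rose, 1 of 9 nuclear genes rose (Uqcrh, 0.20) and 2 fell (Uqcrb, -0.47, and Uqcrq, -0.27). In complex IV, where mt-Co1 fell, 1 of 10 rose (Cox4i1, 0.25) and 2 fell (Cox6a1, -0.41, and Cox6c, -0.34). In ATP synthase 4 of 15 rose, among them Atp5l (0.33), Atp5f1 (0.19) and Atp5o (0.17), and Atp5g3 fell (-0.20). In complex II, which has no mitochondrially encoded subunit, Sdhb rose by 0.44, Sdhc changed by -0.31 and the other 2 did not pass. After centring on T-cell genes 33 of 36 complex I genes and all of complexes II, III and IV passed as lower, on a scale where 65.9% of all tested genes did.

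The mean log2 level of the 13 mitochondrial mRNAs exceeded that of the 70 nuclear genes of complexes I, III, IV and V by 2.28, 2.30 and 2.33 in the cisplatin libraries and by 2.12, 2.06 and 2.02 in the control libraries. The groups did not overlap, and the difference of 0.24 is unaffected by scaling each library by a constant but was 0.13 with quantile normalization. The mean of the mitochondrial mRNAs was 7.03 to 7.16 with cisplatin and 6.90 to 6.93 in the control group, while that of the nuclear genes was 4.75 to 4.86 and 4.78 to 4.89. This mean weights the 6 mRNAs of the low set, 5 of them copied almost whole, like the 7 of the high set. A rise was not shared by all of the high set, where mt-Co1, mt-Nd5 and mt-Nd6 had log2 fold changes of -0.24, 0.01 and -0.02.

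**Figure D5:**
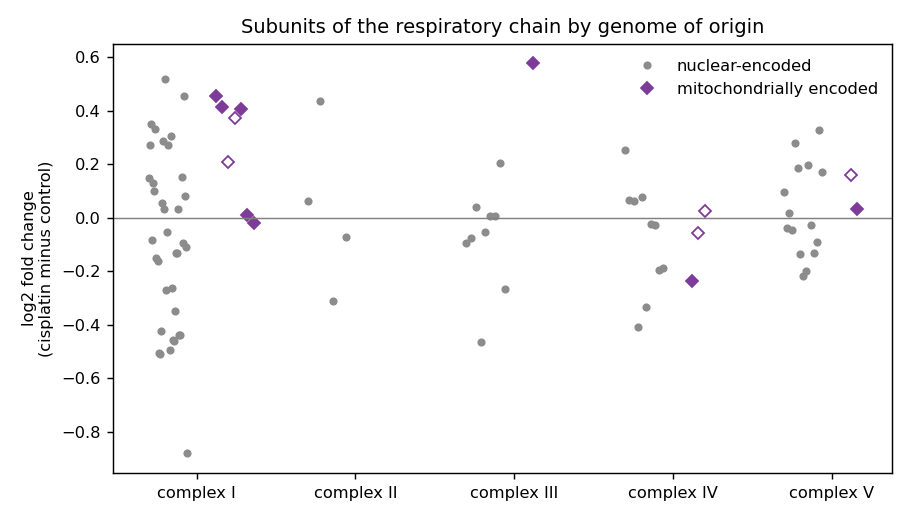
Log2 fold change (cisplatin minus control, FPKM scale) of nuclear-encoded (grey) and mitochondrially encoded (purple diamonds) subunits of complexes I to V. Open diamonds are mRNAs with an exact nuclear copy over more than 97% of their length. In complex III mt-Cytb lies at 0.58, above the 9 nuclear genes, and in complex IV mt-Co1 lies at -0.24 among them; centring on T-cell genes lowers all points by the same amount, to 0.0050 and -0.81 for these 2.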

How the data were processed

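Per the submitters' processing notes, reads were cleaned with fastp, aligned to mm10 (GRCm38) with HISAT2 2.0.5 and counted with featureCounts 1.5.0-p3, whereas the published methods name LifeScope for both steps. The authors deposited FPKM values, which scale the reads on a gene to its length and to the library. Strand setting and treatment of multiply matching reads are not given in the sources used here.

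Whole reads were rebuilt from FPKM, gene length and the step of each library (100% of values within 0.1 of a whole number), and floors cover counting error only. The 15874 genes that averaged 0.5 FPKM or more were fitted as log2(FPKM + 0.1) with limma 3.58.1 (R 4.3.3, lmFit, eBayes with trend), after a test on simulated data. A fold change on this scale understates changes of low genes. Calls needed a Benjamini-Hochberg adjusted p under 0.05 and, where stated, a fold of at least 2. Replicates of a group differed by more than counting noise (chi-square per degree of freedom 5.36 to 6.44). Gene coordinates were those of GENCODE M21 for all 37 mitochondrial genes, and copies were found with BLAST+ 2.17.0 in its transcripts, from which the sequences were taken. From each nuclear list the up to 3 largest rises and falls past the adjusted p were named where the higher group averaged 5 FPKM or more, beside a few chosen after their values were seen (Slirp, Igfbp5, Krt7, Tpm2 and Ighm). Members and lists were chosen with earlier results of these data known. Python 3.11.15 with numpy 2.4.6, pandas 2.3.3 and matplotlib 3.10.9 read the tables and drew the plots.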

Additional observations from a re-analysis of the deposited data

How the results depend on the processing

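The alternatives were pseudocounts of 1 and 0.01, filters of 1 FPKM and none, TPM, scaling to reads on nuclear genes, median of ratios, quantile normalization, centring on T-cell identity genes, voom on rebuilt reads, no trend, each library left out and a block for the replicate number. The calls over all genes, 2687, fell to 1762 with a pseudocount of 1. Centring on T-cell genes gave 0 mRNAs higher (limma, mt-Cytb being the one above 0, with an adjusted p of 0.908) and 9 lower, 2 rRNAs lower, 1 tRNA lower and a median of -0.41 for the mRNAs. It turned mt-Nd1 to -0.12, mt-Nd2 to -0.16, mt-Nd4 to -0.17, mt-Nd5 to -0.56, mt-Rnr1 to -0.55, mt-Tp to -0.41, mt-Atp6 to -0.41, mt-Nd3 to -0.36, mt-Co3 to -0.55, mt-Nd4l to -0.20, mt-Atp8 to -0.54, Gm10925 to -0.37 and Gm28439 to -0.19. Without the low-value filter 0 mRNAs and 0 rRNAs were lower in limma (adjusted p of mt-Co1 0.0894 and of mt-Rnr2 0.0681). The count of rRNAs lower was also 0 with scaling to nuclear reads and without a trend, and voom put 1 rRNA (mt-Rnr1) higher. Scaling to nuclear reads put 1 tRNA (mt-Tp) higher. Scaling to nuclear reads gave mt-Nd6 0.065, mt-Co2 0.027 and Gm28437 0.0039, voom gave 0.063, 0.027 and 0.0011, and quantile normalization gave mt-Nd5 -0.20, mt-Rnr1 -0.083, mt-Co2 0.019 and Gm28437 0.033. TPM gave mt-Nd5 -0.0098. Quantile normalization lowered the excess of mitochondrial over nuclear subunits from 0.24 to 0.13. Centring on T-cell genes moves every gene of a library by the same amount by construction. The library size behind the deposited FPKM was 1.03 to 1.05 times the reads on genes in the cisplatin libraries. In the control libraries it was 0.976 to 0.982 times those reads. Scaling to nuclear reads and voom use reads on genes instead. The cause of that difference between the groups and of the other shifts was not tested.

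Leaving out 1 library at a time gave 0 to 1 rRNAs lower and ranges of -0.010 to 0.025 for mt-Nd5, -0.073 to 0.017 for mt-Nd6, -0.033 to 0.057 for mt-Rnr1, -0.12 to 0.017 for mt-Co2, -0.20 to 0.013 for Gm28661, -0.11 to 0.099 for mt-Co3 and -0.32 to 0.26 for mt-Atp8. mt-Cytb and mt-Co1 kept their direction and call in each of these 6 fits, with ranges of 0.55 to 0.60 and -0.26 to -0.23. Samples with the same replicate number did not deviate together (correlations 0.0229, -0.063 and -0.0207), and unlike numbers gave -0.0605 to 0.0827. These values show no shared effect and cannot tell whether samples were prepared as pairs. With the replicate block 2662 genes were called, and the 16 mitochondrial genes kept their side of the threshold. Depth limited mt-Atp8 (11 to 26 reads in a library), mt-Nd4l (33 to 67) and the pseudogene Gm10222 (44 to 71) most. The other pseudogenes had 67 to 510 reads in a library, and mt-Nd3 had 114 to 194.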
